A study of Mus musculus with 30 samples.

Results

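The half-lives of 5806 mRNAs were compared between a Nanos2TAG/TAG and a Nanos2TAG/+ spermatogonial stem cell (SSC) line. They are all the transcripts with a half-life in both lines, out of 14558 genes with any half-life or expression value in the tables used here. NANOS2 is an RNA-binding protein of the male germline, and the Nanos2TAG allele carries a V5-c-Myc-PreScission-6xHis-EGFP tag after the start codon. Line 4 is heterozygous for the tag and line 5 is homozygous, so that the SSCs of both groups carry at least 1 tagged copy and no untagged line was part of the comparison. Each genotype is represented by 1 line, grown from testes of postnatal day 7 mice of mixed C57BL/6 and DBA/2J background, on embryonic fibroblast feeders with GDNF, FGF2, EGF and LIF. SLAM-seq was applied to 24 libraries, 12 per line, from 6 times (0, 30, 60, 120, 540 and 1440 min) after 4-thiouridine was removed, with 2 technical replicates per time. RNA-seq of ribosomal RNA-depleted total RNA gave 1 library per line, of 10908790 (TAG/+) and 11738620 (TAG/TAG) reads as recovered from the deposited FPKM (fragments scaled by transcript length and library depth).

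The amount of an mRNA in a cell is set by how fast it is made and how fast it is degraded, and the half-life describes the second of these. In SLAM-seq, cells incorporate 4-thiouridine into new RNA, iodoacetamide makes the modified base read as a C in place of a T, and the loss of T-to-C reads during the chase follows the decay of the labelled RNA. Most mammalian mRNAs are degraded after the CCR4-NOT complex shortens the poly(A) tail, after which the decapping enzymes and the exonucleases XRN1 and the exosome remove the body. Messages of growth-factor-induced transcription factors are known for short half-lives, and those of ribosomal and respiratory proteins for long ones.

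The authors fitted 1 half-life per transcript and line, without an error or a read depth. No spread between cultures of 1 genotype can therefore be had, no difference below has a test, and genotype and line cannot be told apart. The study names the TAG/+ and TAG/TAG lines as biological replicates in RNA-seq. Its SLAM-seq methods also speak of biological replicates, and the SLAM-seq libraries come from these lines alone. The study reports no contrast in half-life between these genotypes. How much of the differences below is scatter between replicates was not tested. Differences are described by their size and by counts past a fold, beside the same counts over all transcripts. Whether a half-life repeats within 1 line was not tested.

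The label of the cultures was checked in the RNA-seq libraries. The germ cell markers listed there, 10 of 11, summed to 951 FPKM (TAG/+) and 1142 FPKM (TAG/TAG), with Ddx4 at 31.0 and 41.4 FPKM and Zbtb16 at 107 and 102 FPKM. These markers did not go one way. Ddx4, Ret, Gfra1 and Etv5 were higher in TAG/TAG, whereas Dnd1, Zbtb16, Sall4, Lin28a, Nanos2 and Nanos3 were lower. The fibroblast markers, 9 of 10, summed to 384 and 531 FPKM, of which Fn1 gave 254 and 280 FPKM. The sum was thus higher in the TAG/TAG library, and in bulk RNA more cells of a type and more RNA per cell cannot be told apart. Somatic testis markers, 5 of 8, summed to 10.5 and 28.3 FPKM, with Wt1 at 2.51 and 19.6 FPKM. Per the labels, the feeders were depleted before extraction, and the methods of the study describe sorted SSCs for both RNA-seq and SLAM-seq, gated from residual feeders. Per the labels, the extraction used QIAzol for the TAG/+ RNA-seq library and Trizol for the TAG/TAG RNA-seq library and for SLAM-seq. Differences in FPKM cannot be told apart from differences in extraction.

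The half-lives of both lines had close medians and ranked transcripts similarly. The median was 224 min in the TAG/+ line and 226 min in the TAG/TAG line, and the middle 50% of transcripts lay between 162 and 289 min and between 159 and 300.0 min (n = 5806). The tails were wider in the TAG/TAG line. Half-lives under 60 min numbered 84 in the TAG/TAG line and 37 in the TAG/+ line, and those over 540 min numbered 319 and 209. Spearman's rho between the lines was 0.77 across transcripts, which are not independent replicates and share the label, the kit and the fit.

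**Figure D1:**
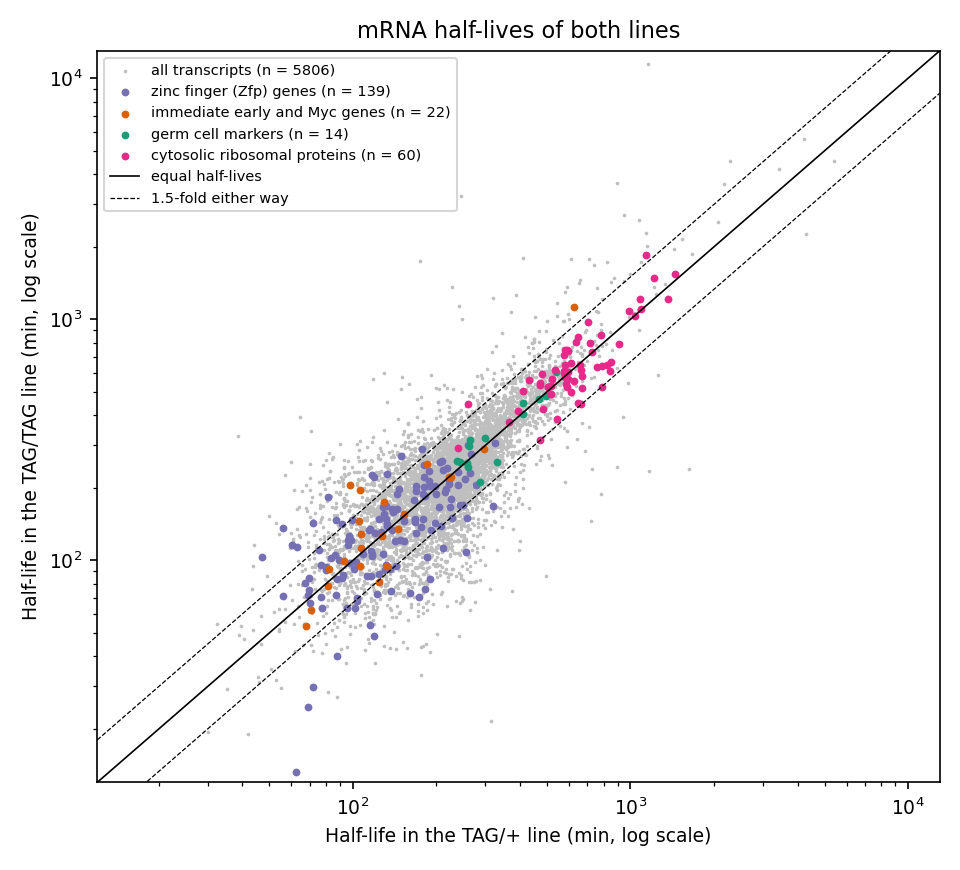
Half-life in the TAG/TAG line against half-life in the TAG/+ line, in minutes on log axes, with 1 point per transcript (n = 5806), the solid line at equal half-lives and the dashed lines at a 1.5-fold difference. Ribosomal protein messages lie at the long end in both lines and zinc finger messages at the short end, and the cloud is widest below about 200 min.

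Most transcripts had similar half-lives. The log2 ratio of the half-lives (TAG/TAG over TAG/+) had a median of 0.04 and quartiles of -0.24 and 0.28, and it ran from -3.86 (Stab2) to 3.74 (Map3k11). The half-lives were within 1.1-fold of each other for 1665 transcripts (28.7%) and within 1.5-fold for 4602 (79.3%). They were over 1.5-fold longer in the TAG/TAG line for 583 transcripts (10.0%) and over 1.5-fold shorter for 621 (10.7%). Past 2-fold, 177 were longer (3.05%) and 213 shorter (3.67%). These shares are the background for every count of a gene list below.

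Agreement in rank was closest at the long end. Of the transcripts in the longest-lived 25% in the TAG/+ line (the top quartile), 76.2% (1107) were in the top quartile of the TAG/TAG line. For the bottom quartile this was 62.3% (904). A move from one end to the other was rare, with 29 transcripts going from the bottom quartile in TAG/+ to the top quartile in TAG/TAG and 21 going the other way.

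The size of the difference went with the half-life itself. In the decile of transcripts with the shortest geometric mean half-life (24.2 to 116 min), the quartiles of the log2 ratio were -0.65 and 0.28, and 40.1% were past 1.5-fold. In the decile of 272 to 313 min, the quartiles were -0.13 and 0.21, and 8.26% were past 1.5-fold. The share then rose again, to 10.2% and 18.2% in the 2 deciles with the longest half-lives. The direction went with it as well. The median log2 ratio was -0.16 in the shortest decile and 0.15 in the longest (413 to 4947 min), where 88 transcripts were over 1.5-fold longer in TAG/TAG and 18 shorter. The ratio and the mean come from the same pair of half-lives, and log2 half-lives had an SD of 0.73 in TAG/+ and 0.84 in TAG/TAG.

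The spread also went with expression. Among the 5152 transcripts with an FPKM in both lines, 34.7% of the lowest decile of mean FPKM (0.217 to 5.73) were past 1.5-fold in half-life, against 7.36% of the highest decile (155 to 7493). FPKM and half-life depend on each other, and the part of each in the spread was not tested.

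**Figure D2:**
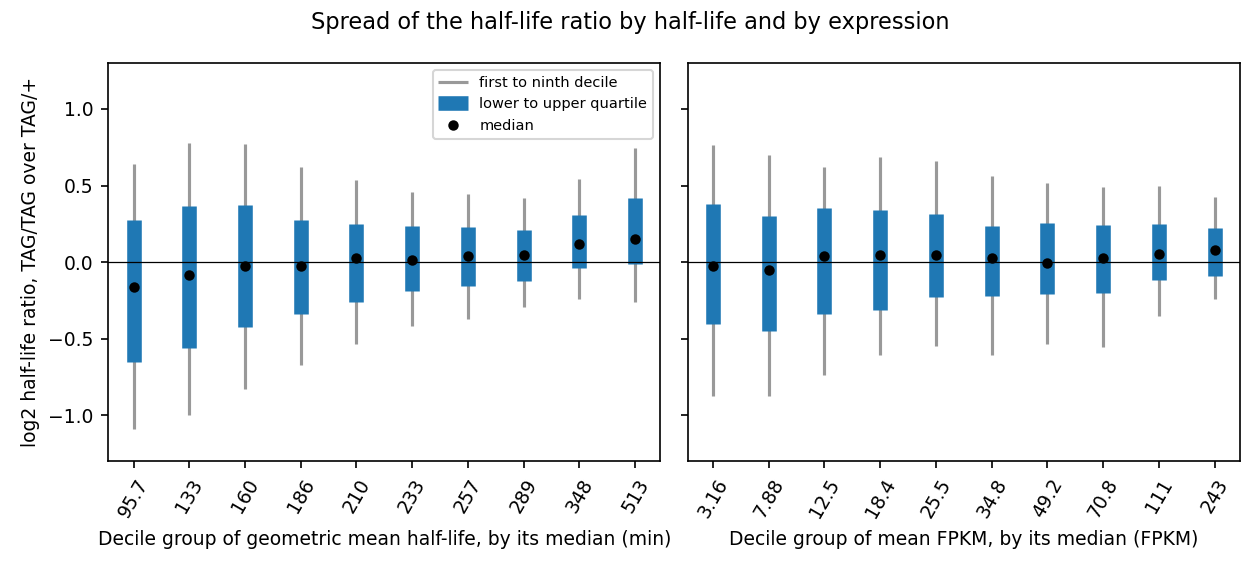
The log2 half-life ratio (TAG/TAG over TAG/+) in deciles of geometric mean half-life (left, minutes) and of mean FPKM (right), each decile named by its median, with the median as a point, the quartiles as a bar and the first and ninth deciles of the ratio as a line. The bars narrow from the shortest half-lives to the decile at 289 min and widen again in the 2 longest deciles, they narrow from low to high FPKM, and the median passes from below to above 0 from left to right in the left panel.

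Messages of several abundant complexes had long half-lives in both lines. Of 60 messages of cytosolic ribosomal proteins, the structural proteins of the ribosome, 58 were in the top quartile in both lines, against 1107 of all 5806 transcripts. Their median half-life was 602 min in TAG/+ and 606 min in TAG/TAG, with a median log2 ratio of 0.04. Only 3 of the 60 (5.00%) were past 1.5-fold, 2 longer and 1 shorter. Rpl13a went from 259 min in TAG/+ to 447 min in TAG/TAG and Rplp2 from 1135 to 1853 min, whereas Rpl23 went from 789 to 526 min. Rps10, the most abundant of these messages with FPKM, had 626 and 557 min. Ribosomal protein genes have many processed pseudogenes, and how the authors' counting split such reads is not given in the sources used here.

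Respiratory chain and folding messages behaved alike. Of 47 oxidative phosphorylation messages, 42 were in the top quartile in both lines. They encode subunits of the respiratory complexes and the ATP synthase, cytochrome c (Cycs) and the complex I assembly factors Ndufaf4, Ndufaf7 and Ndufaf8. Their medians were 495 min (TAG/+) and 493 min (TAG/TAG), and 1 of 47 was past 1.5-fold, Ndufb3 with 411 and 622 min. Atp5b, the ATP synthase beta subunit, had 539 and 456 min. All 8 messages of the CCT chaperonin, which folds actin and tubulin, were in the top quartile in both lines and within 1.5-fold. Cct5 had 490 and 489 min, and Cct2 had 488 and 597 min. Proteasome subunits had a median of 326 min in TAG/+ and 400 min in TAG/TAG (n = 31), with a median log2 ratio of 0.10, 3 longer past 1.5-fold (Psma1 with 178 and 349 min among them) and 1 shorter. The shorter one was Psmc3ip (201 and 95.2 min), which matched the list by its symbol and encodes a meiotic recombination factor that binds a proteasome subunit.

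The metabolic lists were small. None of the 18 messages of cholesterol synthesis enzymes and the LDL receptor was past 1.5-fold, beside 20.7% of all transcripts. In the deciles of geometric mean half-life from 197 to 313 min, the share past 1.5-fold was 8.26% to 15.9%, so that a count of none says little in such lists. The log2 ratios ran from -0.51 (Dhcr7) to 0.47 (Srebf2), with a median of 0.02. Insig1, a sterol-regulated retention factor, had 232 and 234 min. None of 6 glycolytic messages was past 1.5-fold, and Aldoa, the most abundant, had 511 min (TAG/+) and 490 min (TAG/TAG).

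Messages of transcription factors were often short-lived in both lines. Of 139 Zfp genes, most of which encode zinc finger proteins that bind DNA, 74 were in the bottom quartile in both lines and 1 in the top quartile. Their median half-lives were 133 and 135 min. With 13 longer and 22 shorter past 1.5-fold, 25.2% of them differed by that much, beside 20.7% of all transcripts. In the decile of geometric mean half-life from 116 to 147 min, which spans these medians, the share was 38.2%. Zfp60 had the highest ratio, with 56.0 min in TAG/+ and 137 min in TAG/TAG. Zfp558 had the lowest, with 62.2 and 13.3 min. Its level in RNA-seq was low, at 26 and 45 reads, which are not the SLAM-seq reads behind the half-life. Zfp131 had 151 and 152 min, and Zfp318, the most abundant, 260 and 302 min.

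Immediate early and Myc messages, most of which encode transcription factors, had medians of 116 min (TAG/+) and 132 min (TAG/TAG). Of 22 messages, 14 were in the bottom quartile in both lines. The list also holds Btg1 and Btg2, which are counted with the CCR4-NOT adaptors below. Fos had 92.9 and 99.5 min, Jun 107 and 112 min, Ier3 70.7 and 62.3 min, and Egr1 145 and 135 min. These 4 messages differed by under 1.2-fold. Past 1.5-fold, 3 were longer in TAG/TAG, namely Klf2 (97.9 and 205 min), Btg2 (106 and 196 min) and Klf4 (624 and 1126 min), and Btg1 was shorter (125 and 81.5 min). Klf2 had 61 and 50 reads in the separate RNA-seq libraries. Egr4 had 222.2 and 222.3 min.

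AU-rich elements in the 3′ UTR are binding sites of proteins that recruit the CCR4-NOT complex. The sites below are shown because their messages were short-lived in both lines (Fos, Jun, Ier3) or had a half-life over 1.5-fold longer in the TAG/TAG line (Btg2, Klf2). Each is the first UAUUUAU of the annotated 3′ UTR, in capitals, with 8 bases on each side, read 5′ to 3′ from the sense strand of GRCm38 with GENCODE M21. They lie at chr12:85477106-85477128 (Fos, + strand), chr4:95049082-95049104 (Jun, - strand), chr17:35822484-35822506 (Ier3, + strand), chr1:134077252-134077274 (Btg2, - strand) and chr8:72320991-72321013 (Klf2, + strand).
Fos: uuucaauuUAUUUAUuaagaugg
Jun: cuugugcaUAUUUAUaauagcgu
Ier3: cuaauuaaUAUUUAUguauuuau
Btg2: ugaagagcUAUUUAUacauguuu
Klf2: cagacugcUAUUUAUuggaccuu
Of the 21 immediate early and Myc messages searched, 12 held the motif and 9 did not, among them Ier2 (67.8 and 53.7 min), Ier5 (81.2 and 78.6 min) and Junb (81.9 and 92.5 min), which were as short-lived, and Klf4 and Btg1. The Ier3 3′ UTR held 4 such matches in 613 bases and that of Fos 2 in 815 bases, whereas Jun, Btg2 and Klf2 held 1 each.

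UAUUUAU was in the last 500 bases of 19.3% of 3′ UTRs of at least 500 bases in the bottom quartile of both lines (150 of 777) and of 9.52% in the top quartile (57 of 599). Over all 4423 transcripts with such a 3′ UTR the share was 15.3%, and over the 13616 annotated coding genes with one it was 15.4%. Transcripts with the motif had median half-lives of 196 min (TAG/+) and 203 min (TAG/TAG), and those without it 214 and 216 min. The motif therefore went with the half-life in both lines. It was in 14.7% of the 3′ UTRs of transcripts over 1.5-fold longer in TAG/TAG, in 18.0% of those over 1.5-fold shorter and in 14.8% of those within 1.1-fold. With the motif, 9.88% of transcripts were over 1.5-fold longer and 13.0% shorter, and without it 10.4% and 10.7%.

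The NANOS2 motif that the study names was searched in its 4 forms. They are AUGAAAU, then the variant AUGAAUU, and the counterparts AUUAAAU together with the variant AUUAAUU of it. It also went with the half-life in both lines. One of the forms was in 34.6% of these windows in the bottom quartile of both lines, in 15.7% in the top quartile and in 27.0% of those of the 13616 coding genes. Between the lines there was little difference, with 22.5% of transcripts over 1.5-fold longer in TAG/TAG, 24.5% of those over 1.5-fold shorter and 23.6% of those within 1.1-fold. With one of the forms (n = 1079), 9.55% of transcripts were over 1.5-fold longer and 11.1% shorter, and without (n = 3344), 10.6% and 11.1%. The Pumilio motif UGUANAUA was in 17.4% of windows of the bottom and in 9.02% of the top quartile, against 13.7% of those of the 13616 coding genes. Messages with a short 3′ UTR lived longer in both lines. The quartile with 3′ UTRs of up to 530 bases had medians of 271 and 274 min, and the quartile with 2322 bases or more had 196 and 200.1 min. A match is a run of letters in the annotated 3′ UTR and not a measured binding site, and the 3′ ends used in these lines were not examined.

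The study's list of the top 500 transcripts bound by NANOS2 contributed 348 transcripts with both half-lives. The study ranked them by the CRAC signal of the TAG/TAG line relative to the mean FPKM of both lines, so that FPKM took part in the choice. Of these, 32 were over 1.5-fold longer in TAG/TAG and 33 shorter, or 18.7% in all, beside 20.7% of all transcripts. Their median log2 ratio was 0.04, as over all transcripts. In FPKM, 28 of the 348 were over 1.5-fold higher in TAG/TAG and 78 lower, beside 12.3% and 13.1% of all transcripts. The highest ratio of the list was that of 1700047I17Rik2 (104 and 303 min, with 159 and 134 reads in RNA-seq). The lowest was that of Zfp558, given above, and Ankrd26 had 223 min in both lines. The highest ratios among transcripts with FPKM of at least 5 and half-lives within the chase were those of Lgalsl (92.5 min in TAG/+ and 204 min in TAG/TAG), the TGF-beta receptor Tgfbr1 (98.1 and 209 min) and the exonuclease gene Eri1 (110 and 233 min). The lowest were those of the augmin subunit Haus6 (171 and 61.7 min), Rsbn1l (201 and 85.2 min) and Thap12 (324 and 145 min). Rnf149 had 284 min in both lines, and Mlf2, the most abundant, had 219 and 203 min.

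The first match to the NANOS2 motif in the 3′ UTR of 4 of these messages is shown in capitals, with 8 bases on each side, to place the same motif beside opposite differences. They lie at chr4:47412118-47412140 (Tgfbr1, + strand), chr8:35468786-35468808 (Eri1, - strand), chr4:86581473-86581495 (Haus6, - strand) and chr7:98717406-98717428 (Thap12, + strand).
Tgfbr1: ugguagcaAUGAAUUcagugcca
Eri1: aauuuaaaAUGAAUUucuacauu
Haus6: caggcuuaAUGAAUUcuaagucu
Thap12: uuuggaaaAUGAAUUuugugaga
Tgfbr1 and Eri1 had longer half-lives in TAG/TAG, and Haus6 and Thap12 shorter ones. These 4 are shown because their first match is the same heptamer, whereas that of Lgalsl is AUUAAUU and that of Rsbn1l AUGAAAU. Among the longer-lived messages, the 3′ UTR held 3 matches in Tgfbr1, 6 in Eri1 and 4 in Lgalsl. Among the shorter-lived ones it held 1 each in Haus6 and Thap12 and 2 in Rsbn1l, and that of Rnf149 held none. These 3′ UTRs differ in length, from 1159 bases (Thap12) to 4154 bases (Tgfbr1).

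Germ cell markers had similar half-lives in both lines. All 14 were within 1.5-fold, beside 79.3% of all transcripts. In the deciles of geometric mean half-life from 221 to 412 min, 8.26% to 11.2% of transcripts were past 1.5-fold, and in the longest decile 18.2%. That none of 14 markers was past it therefore says little. Their median log2 ratio was 0.04, and their half-lives ran from 236 to 540 min in TAG/+ and from 212 to 603 min in TAG/TAG. Ddx4, an RNA helicase of the germ plasm, had 498 and 483 min. Dazl, an RNA-binding protein of germ cells, had 466 and 469 min. The lowest ratio was that of Nanos3, a paralog of Nanos2, with 287 and 212 min, and Tex101, a germ cell surface protein, had the highest with 264 and 317 min. No half-life of Nanos2 was used here, and its level was 27.5 FPKM (TAG/+) and 23.8 FPKM (TAG/TAG). Of 33 messages of germline RNA-binding proteins, 31 were within 1.5-fold. The exceptions were the piRNA pathway factor Tdrd12 (269 and 417 min) and the translational regulator Cpeb3 (175 and 81.9 min). Cpeb3 had 16 and 90 reads in the separate RNA-seq libraries. Pum2, which binds the Pumilio motif, had 148 and 134 min.

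**Figure D3:**
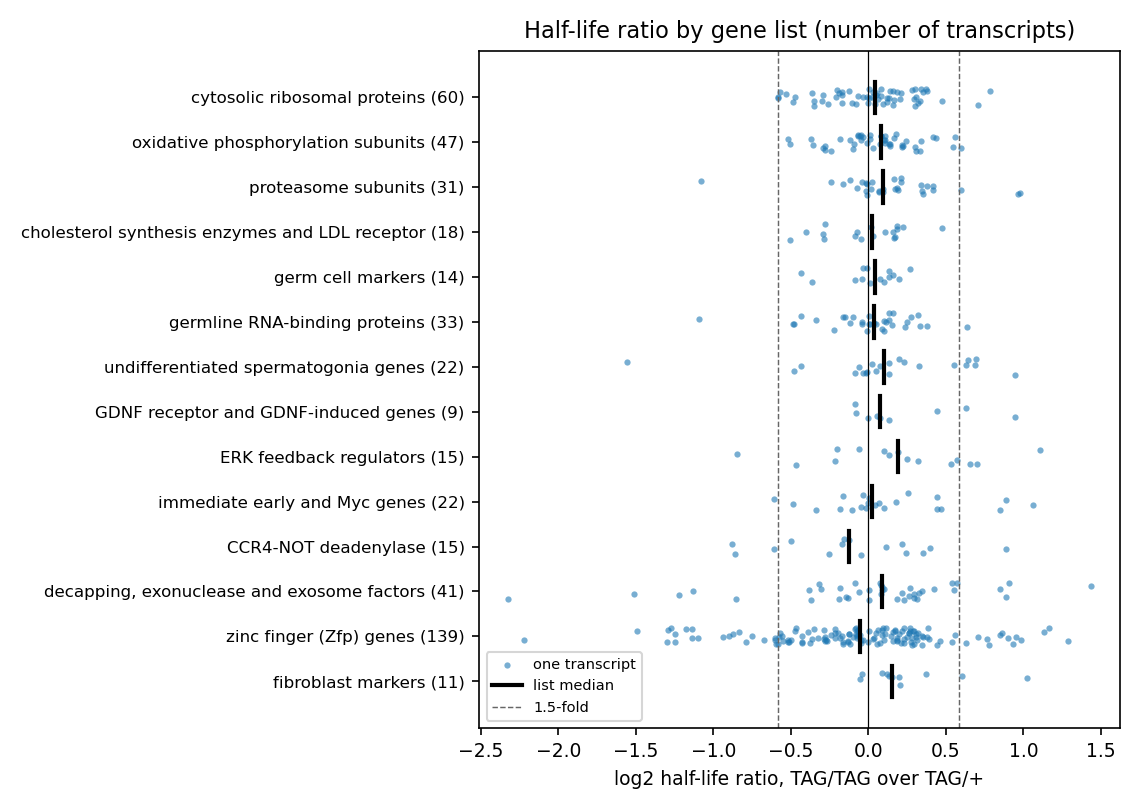
The log2 half-life ratio (TAG/TAG over TAG/+) of each transcript of 14 gene lists, with the number of transcripts beside the list's name, the list median as a bar and dashed lines at 1.5-fold. Germ cell markers, sterol pathway genes and ribosomal proteins lie mostly between the dashed lines, whereas the decay factors and the zinc finger genes spread past both.

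Of 22 genes of undifferentiated spermatogonia, 5 were over 1.5-fold longer in TAG/TAG and 1 shorter, or 27.3%, beside 20.7% of all transcripts. The longer ones were the transcription factor Lhx1 (86.7 and 167 min), Foxo1 (112 and 181 min), E-cadherin Cdh1 (232 and 374 min), the Polycomb gene Bmi1 (194 and 303 min) and the GDNF-induced repressor Bcl6b (787 and 1219 min). The shorter one was Eomes, with 179 min in TAG/+ and 60.7 min in TAG/TAG, at 8 and 188 RNA-seq reads. The zinc finger factors Zbtb16 (259 and 253 min) and Sall4 (261 and 299 min) and the RNA-binding protein Lin28a (410 and 407 min) were within 1.2-fold. Among 9 differentiation genes, the retinoic acid receptor Rara was the only one past 1.5-fold (154 and 82.3 min), and Dmrt1, the most abundant, had 318 and 302 min.

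In the GDNF pathway, which maintains SSC self-renewal through the RET receptor and its co-receptor GFRA1, the half-lives of the receptor messages were close while their FPKM were higher in TAG/TAG. Ret had 259 and 243 min, and its FPKM was 73.2 in TAG/+ and 181 in TAG/TAG. Gfra1 had 244 and 257 min and 56.2 and 111 FPKM. The ETS factor Etv5, which GDNF induces, had 236 and 259 min and 46.0 and 178 FPKM. Bcl6b had 23.1 and 225 FPKM and, as above, a half-life over 1.5-fold longer. Of 8 members with FPKM, 5 were over 1.5-fold higher in TAG/TAG and none lower, beside 12.3% of all transcripts higher and 13.1% lower. Of 9 with half-lives, 2 were over 1.5-fold longer and none shorter.

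Messages listed as regulators that feed back on ERK signalling, with the ETS factor Etv4 among them, differed in FPKM more often than in half-life. Of 14 with FPKM, 8 were over 1.5-fold higher in TAG/TAG and none lower, beside 12.3% of all transcripts higher and 13.1% lower. Of 15 with half-lives, 3 were longer past 1.5-fold and 1 shorter, or 26.7%, with a median log2 ratio of 0.19. The share was 20.7% of all transcripts and 33.8% in the decile of geometric mean half-life from 147 to 173 min. The medians of the list were 154 min (TAG/+) and 155 min (TAG/TAG). The phosphatase Dusp6 had 14.2 and 83.3 FPKM with 129 min in TAG/+ and 93.4 min in TAG/TAG. The ETS factor Etv4 had 43.6 and 204 FPKM with 176 and 276 min. The ERK inhibitor Spry4 had 3.68 and 14.7 FPKM with 98.3 and 112 min. Half-life and FPKM went in opposite directions for Dusp6 and in the same direction for Etv4. Dusp2 had the highest half-life ratio of the list (70.4 and 152 min), with 10 and 26 reads in RNA-seq, and Dusp16 the lowest (168 and 93.2 min).

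The messages of the decay machinery itself were past 1.5-fold about as often as all transcripts (20.7%). Of 15 messages of the CCR4-NOT deadenylase and its adaptors, 1 was over 1.5-fold longer (Btg2, above) and 3 were shorter, or 26.7%, with a median log2 ratio of -0.12. The scaffold Cnot1 had 184 min in TAG/+ and 243 min in TAG/TAG. The subunit Cnot10 had 456 and 251 min and the associated protein Tnks1bp1 225 and 122 min, both over 1.5-fold shorter, as was Btg1. The deadenylase Cnot7 had 205 and 223 min, its paralog Cnot8 148 and 124 min, and Cnot6 148 and 175 min. Cnot9, the most abundant member, had 244 and 283 min. Tob1, an anti-proliferative adaptor, had 86.1 and 83.3 min.

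Of 41 messages listed with decapping, exonuclease and exosome factors, among them other RNA-binding factors such as Pabpc1 and Lsm11, 4 were over 1.5-fold longer and 5 shorter, or 22.0%. The longer ones were the decapping cofactor Dcp1b (96.1 and 259 min), the P-body protein Patl1 (124 and 232 min), the nonsense-mediated decay factor Smg8 (147 and 272 min) and the nuclear exonuclease Xrn2 (290.3 and 523 min). The shorter ones were the exosome subunits Exosc3 (208 and 72.8 min), Exosc8 (387 and 166 min) and Exosc6 (125 and 69.0 min) and the Sm-like genes Lsm5 (375 and 74.9 min) and Lsm11 (137 and 62.3 min). Exosome subunits did not go one way, since Exosc10 had 265 and 385 min and Exosc9 298 and 380 min. The cytoplasmic exonuclease Xrn1 had 162 and 200.4 min, the decapping enzyme Dcp2 213 and 171 min, and the helicase Ddx6 202 and 243 min. Pabpc1, the poly(A)-binding protein, had 415 and 498 min.

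The largest differences were found in messages of many functions. Among the 4532 transcripts with FPKM of at least 5 and half-lives of at most 1440 min in both lines, the 15 highest ratios ran from 3.25-fold to 6.11-fold. Kptn, an actin-associated mTORC1 regulator, had 64.6 min in TAG/+ and 395 min in TAG/TAG (chr7:16119895-16127516, + strand). The tubulin carboxypeptidase Agtpbp1 had 70.9 and 346 min (chr13:59445742-59585227, - strand). The collagen chaperone Serpinh1, expressed by fibroblasts, had 118 and 564 min (chr7:99345376-99353239, - strand). The Mediator subunit Med23 had 241 and 1133 min (chr10:24869986-24913681, + strand), with 5667 and 5449 reads in RNA-seq. The phosphatase Inpp5b had 130 and 599 min, Cant1 247 and 1006 min, Atad2b 57.0 and 226 min, and Dnmbp 150 and 576 min. Cinp, March5, Fut10, Lpar2, Entpd6, Rgl1 and Mgll made up the rest.

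The 15 lowest ratios ran from 3.62-fold to 14.5-fold shorter in TAG/TAG. The scavenger receptor Stab2 had 314 min in TAG/+ and 21.7 min in TAG/TAG (chr10:86841198-87008025, - strand), the latter below the first chase time after the start. It had 655 and 583 reads in RNA-seq. Lsm5, above, came next (chr6:56701063-56704710, - strand). The mitochondrial ribosomal protein Mrps27 had 1170 and 236 min (chr13:99344786-99415562, + strand). Bckdha, a subunit of the branched-chain keto acid dehydrogenase, had 265 and 62.3 min (chr7:25629946-25658981, - strand). Napa, the alpha-SNAP of membrane fusion, had 311 and 76.4 min (chr7:16098458-16117975, + strand). Txlng had 242 and 48.7 min, Fgd6 783 and 189 min, and Vps13b 276 and 67.0 min. Exog, Ggcx, Wdr24, Saysd1, Kcnab2, E4f1 and AI661453 made up the rest. In 13 of the 15, the TAG/TAG half-life was under 100 min.

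**Figure D4:**
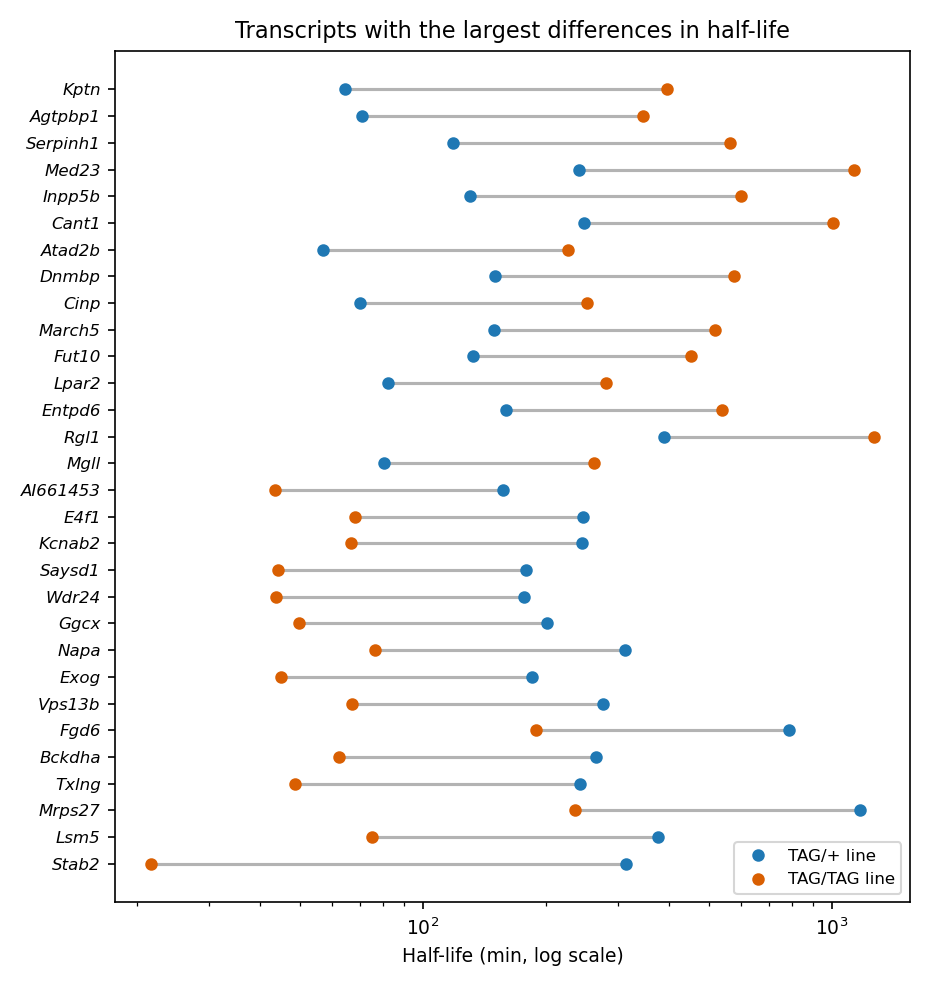
Half-life in the TAG/+ line (blue) and in the TAG/TAG line (orange), in minutes on a log axis, of the 15 transcripts with the highest and the 15 with the lowest ratio among those with FPKM of at least 5 and half-lives of at most 1440 min in both lines. The pairs are 3.25-fold to 14.5-fold apart.

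None of these 30 transcripts was in the study's top 500 list, to which 5.78% (262) of the 4532 belong. In 26 of the 30 the FPKM of the lines were within 1.5-fold, as they were in 78.7% of the 4532. The FPKM of Kptn were 10.5 and 15.3, those of Agtpbp1 23.7 and 26.5, those of Med23 224 and 200.4, and those of Stab2 27.7 and 22.9. The exceptions were Entpd6 (48.0 and 72.4 FPKM), Lsm5 (22.6 and 8.86), Vps13b (56.9 and 31.4) and AI661453 (7.45 and 24.0).

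At the long end, 10 transcripts had half-lives above 1440 min, the last chase time, in both lines. They were Ap2a1, Chmp2a, D8Ertd738e, Elob, Hps1, Ints4, Ppm1m, Rps21, Tapbp and Wdr74. A further 21 were above it in TAG/TAG alone and 1 in TAG/+ alone. Such values lie beyond the sampled times. They include the highest half-life of all, that of the chloride transporter Clcn7 (1160 min in TAG/+ and 11430 min in TAG/TAG), and one end of the highest ratio of all, that of the kinase Map3k11 (244 and 3263 min). Rps21, a ribosomal protein, had 1443 and 1543 min, and the adaptor subunit Ap2a1 2163 and 3658 min.

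Across transcripts, the half-life ratio did not track the FPKM ratio. FPKM is a read count scaled by transcript length and library depth, and its log2 ratio was taken after adding 0.1. Spearman's rho was 0.0038 over 5152 transcripts, with Pearson's r at 0.011, and the points share the lines but not the libraries. When transcripts were divided into quintiles by half-life ratio, the median log2 FPKM ratio was -0.05 in the lowest quintile (median log2 half-life ratio of -0.61) and -0.02 in the highest quintile (0.59), and -0.04 over all transcripts. Divided into quintiles by FPKM ratio, the median log2 half-life ratio lay between 0.02 and 0.05 in every quintile.

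**Figure D5:**
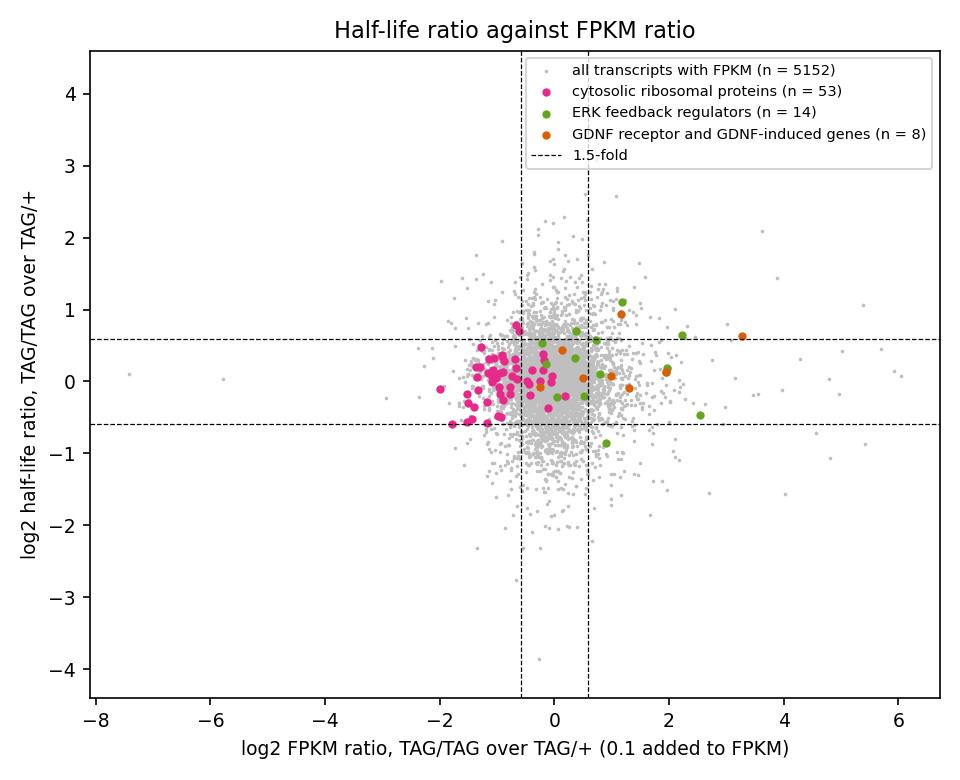
The log2 half-life ratio against the log2 FPKM ratio (TAG/TAG over TAG/+, 0.1 added to FPKM) of 5152 transcripts, with dashed lines at 1.5-fold. Ribosomal protein messages lie to the left and GDNF and ERK feedback messages mostly to the right, with most of them between the dashed lines of the half-life ratio.

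Taking both ratios past 1.5-fold, 183 transcripts went in the same direction and 135 in opposite directions. With an FPKM of at least 5 in both lines, the counts were 130 and 78. Of 519 transcripts with half-lives over 1.5-fold longer, 102 (19.7%) had an FPKM over 1.5-fold higher, beside 12.3% of all transcripts, and 57 (11.0%) a lower one, beside 13.1%. Of 563 with shorter half-lives, 78 (13.9%) had a higher FPKM and 81 (14.4%) a lower one. The wider spread of the half-life ratio at low FPKM was not accounted for in these shares.

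Transcripts with both values higher in TAG/TAG were led by the corepressor Bcor (84.1 and 264 min, 12.4 and 34.6 FPKM), Fam222a, the vitamin D receptor Vdr (224 and 456 min, 9.36 and 27.0 FPKM), the focal adhesion protein Zyx (106 and 232 min, 54.7 and 129 FPKM) and Bach2. Those with both lower were led by Lsm5, Mboat2, the kinetochore protein Zwilch (206 and 86.8 min, 96.0 and 43.7 FPKM), Pex6 (726 and 239 min, 25.4 and 12.5 FPKM) and Idh3b. In the opposite classes, the lactate transporter Slc16a3 had a longer half-life (177 and 477 min) with a lower FPKM (36.4 and 11.8), as did Trmt10b, Mettl2 and Ahsa2. The surface protein Thy1 had a shorter half-life (330 and 110.4 min) with a higher FPKM (15.7 and 35.2), as did Rgs10, Lysmd2, Psmc3ip and AI661453 (157 and 43.4 min).

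In ribosomal protein messages the readouts went apart. Of 53 with FPKM, 41 were over 1.5-fold lower in TAG/TAG and none higher, beside 13.1% of all transcripts lower, and the median log2 FPKM ratio was -0.94. Of 60 with half-lives, 1 was over 1.5-fold shorter, and the median log2 half-life ratio was 0.04. Rps21 had 239 FPKM in TAG/+ and 113 FPKM in TAG/TAG with the half-lives given above, and Rps10 6522 and 3813 FPKM. Oxidative phosphorylation messages had a median log2 FPKM ratio of -0.30, with 12 of 36 over 1.5-fold lower and 1 higher, beside a median log2 half-life ratio of 0.08. In the library with the lower values, RNA was extracted with another reagent, which cannot be told apart from genotype and line.

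Large FPKM differences did not come with half-life differences of 1 direction. Of 49 transcripts with an FPKM over 4-fold higher in TAG/TAG, 10 had a half-life over 1.5-fold longer and 10 over 1.5-fold shorter, and the median log2 half-life ratio was -0.04. Over all transcripts 10.0% were longer and 10.7% shorter, so that both directions were more frequent in this set. Its median half-lives were 159 min (TAG/+) and 175 min (TAG/TAG), and the part of short half-lives in these counts was not tested. Of 8 with an FPKM over 4-fold lower, none was past 1.5-fold in half-life in either direction.

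Fibroblast messages were long-lived. The median half-life of 11 fibroblast markers was 572 min in TAG/+ and 597 min in TAG/TAG, 9 were in the top quartile in both lines, and 2 were over 1.5-fold longer in TAG/TAG, namely Sparc (950 and 1440.4 min) and Col5a1 (289 and 588 min). Vim had 572 and 554 min and Fn1 678 and 745 min. In RNA-seq, 5 of the 11 were over 1.5-fold higher in TAG/TAG and none lower, beside 12.3% of all transcripts higher and 13.1% lower. Their part in the half-lives was not tested.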

How the data were processed

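SLAM-seq half-lives and RNA-seq values of the Nanos2TAG/+ and Nanos2TAG/TAG SSC lines were analysed from 3 tables that the authors deposited. The authors derived half-lives, in minutes, with the SlamDunk pipeline: T-to-C conversion rates were set relative to the start of the chase, technical replicates were merged, and nls in R was used to fit exponential decay. The filter on transcripts and the depth behind each fit are not given in the sources used here. FPKM values, deposited by the authors, come from 1 library per line, and the submitters' processing notes name kallisto and DESeq2 without a role. Tables and columns were assigned to lines by the genotype in their names. Whole reads were recovered from FPKM with the mean transcript length of each gene in GENCODE M21 (100% of values of 13884 genes were whole within 0.05 reads). A count test on them would compare 2 libraries and not genotypes, and was not run.

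The half-life tables were joined by symbol, and ratios were described by medians, quartiles and counts past 1.5-fold and 2-fold, with a pseudocount of 0.1 on FPKM. No FPKM was used for 654 of the 5806 transcripts, 575 of them on chromosomes 15 to 19, and 18.7% of the 654 were past 1.5-fold in half-life beside 21.0% of the others. The members and the gene lists, 41 in all, were chosen with earlier results of these data known. Genes were named by rule: the 15 highest and lowest half-life ratios, and the 5 leading transcripts for each combination of directions, with FPKM of at least 5 and half-lives of at most 1440 min; in each list described, the highest, lowest and nearest-to-zero ratio and the highest mean FPKM; members of the spermatogonial, GDNF, germline RNA-binding, CCR4-NOT and decay lists; and transcripts above 1440 min in both lines. Fos, Jun, Ier3, Egr1, Klf4, Dusp6, Spry4, Rplp2, Ier2, Ier5, Junb, Sparc, Clcn7, Map3k11, Ccnd1, Ccne2, Cdkn1b, Dmc1, Rictor, Rheb and Rps23, the marker genes, and Lgalsl, Tgfbr1, Eri1, Haus6, Rsbn1l, Thap12 and Rnf149 of the top 500 list were named after their values were seen.

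Gene positions and 3′ UTRs are from GRCm38 with GENCODE M21 (5794 symbols matched). Motifs were searched on the sense strand in the last 500 bases of 3′ UTRs of at least 500 bases. Alternatives were limits on FPKM (1 and 5) and half-life (1440 and 540 min), centring, quantile mapping, a pseudocount of 1 and Pearson's r. The scripts were tested on simulated data. CRAC libraries were not used here, and some genes that the rule names are not reported here. Analyses used Python 3.11.15, numpy 2.4.6, pandas 2.3.3 and matplotlib 3.10.9.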

Additional observations from a re-analysis of the deposited data

How the results depend on the processing

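The counts of transcripts past 1.5-fold and 2-fold in half-life stayed within 1.5 times their values under limits of FPKM 1 and 5 and of 1440 and 540 min, after centring and after mapping the TAG/TAG half-lives to the TAG/+ quantiles. The count over 1.5-fold longer lay between 425 and 583, and that over 1.5-fold shorter between 452 and 695. Spearman's rho between the lines lay between 0.73 and 0.77, and rho between the half-life ratio and the FPKM ratio between 0.0036 and 0.016. The count of transcripts past 1.5-fold in half-life and FPKM in opposite directions was 78 with an FPKM of at least 5 in both lines, beside 135 without the limit, and the count in the same direction was 130 beside 183; fewer transcripts were counted (4555 of 5152). Of 114 recomputed list medians, 112 moved by under 0.1 on the log2 scale and none changed sign from a size of 0.1 or more; the exceptions were CCT subunits (-0.06 relative to transcripts of like FPKM) and Id and Smad genes (0.13 at an FPKM of at least 5). No paired analysis was possible because each line has 1 half-life per transcript and no result comes from a test. For the same reason no replicate could be left out, and the depth that limits a half-life is unknown.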

Other observations

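Messages of the cell cycle were mixed. Of 18 cyclins, cyclin-dependent kinases, their inhibitors and E2F transcription factors, 3 were over 1.5-fold longer-lived in TAG/TAG and none shorter. They were cyclin A2 (Ccna2, 544 and 1035 min), the inhibitor Cdkn1b (196 and 346 min) and cyclin E2 (Ccne2, 97.2 and 162 min). Cdkn1b and cyclin D1 (Ccnd1, 279 and 417 min) had longer half-lives with a lower FPKM (21.8 and 9.72, and 61.9 and 25.2). Of 33 DNA replication genes, 1 was longer and 3 were shorter past 1.5-fold. Of 10 meiotic genes, the cohesin Smc1b was longer (428 and 765 min), and Mei1 (136 and 70.2 min) and the recombinase Dmc1 (329 and 200.3 min) were shorter. Of 52 chromatin and DNA methylation enzymes, 7 were longer and 4 shorter, and Ehmt2, the most abundant, had 603 and 1007 min.

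Of 14 messages that the study places in mTOR, PI3K and RAS pathways and calls bound by NANOS2, 1 was past 1.5-fold in half-life, Eif3e (331 min in TAG/+ and 167 min in TAG/TAG), and 4 were over 1.5-fold lower in FPKM with none higher, beside 13.1% of all transcripts lower. The study chose them on lines of this allele, by a CRAC signal taken relative to mRNA abundance, so that FPKM took part in the choice. Rictor had 109 and 136 min, Rheb 228 and 166 min, and Rps23 662 and 447 min.

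Napa, among the 15 lowest ratios (311 and 76.4 min), and Kptn, with the highest (64.6 and 395 min), are neighbours on the same strand of chromosome 7, with 1919 bases between the annotated end of the first and the start of the second. The longer-lived message of the pair was Napa in TAG/+ and Kptn in TAG/TAG. No other neighbours were examined.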
